A study of Saccharomyces cerevisiae with 18 samples.

Results

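The paired large-subunit ribosomal protein genes of budding yeast are the A and B copies of the duplicated genes from RPL1 to RPL37, 29 pairs and 58 genes of the 7036 features in the count files. They were chosen by name, as the rows whose systematic identifiers belong to these pairs, and no measured value entered the choice. Poly(A) RNA had been sequenced from 18 libraries of asynchronous cultures, with 6 libraries for each of 3 Saccharomyces cerevisiae strains in the S288C background. Every strain, the control included, carried NUP60 fused to GFP; Nup60 belongs to the nuclear basket, on the inner face of the nuclear pore. WT was NUP60-GFP::HIS3 with the HIS3 marker of S. kluyveri. K467N was nup60-K467N-GFP::HIS3 with that same marker and had asparagine at residue 467, a mimic of acetylated lysine. K467R was nup60-K467R-GFP::HIS3MX6 and had arginine there, a mimic of deacetylated lysine, so substitution and marker cannot be told apart in comparisons with K467R. Growth was at 25 °C in YP medium supplemented with 2% glucose and adenine. Whether the 6 libraries per strain stem from separate cultures is not stated, so p-values measure only the spread between these libraries, which may be technical.

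Ribosomal proteins of the large subunit surround the ribosomal RNA that joins amino acids. In budding yeast most of them are encoded by a pair of genes left from an ancient duplication of the whole genome, and the copies of a pair give proteins that are identical or nearly so. In growing cells the genes are transcribed at very high rates from promoters bound by Rap1 together with Fhl1 and Ifh1, and their output is known to follow growth conditions through the TOR and protein kinase A pathways.

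The copies of a pair can be told apart only where their sequences differ, so the sequences set what the counts can show. Proteins were identical in 8 pairs (RPL1, RPL2, RPL12, RPL18, RPL19, RPL20, RPL23 and RPL35), and the lowest protein identity, 84.43%, was that of RPL22. Coding identity ran from 78.86% in RPL22 to 99.39% in RPL1. In 21 pairs both copies have an intron and in 8 pairs neither has, and the copies lie on the same chromosome in 3 pairs (RPL19, RPL24 and RPL35). RPL35, whose protein sits beside the exit of the peptide tunnel, and RPL12, whose protein lies at the base of the ribosomal stalk, encode identical proteins from copies that differ at 3 and at 42 coding bases. The following stretches of 90 coding bases, from the RefSeq R64 genome, show both cases and are written on the coding strand with the bases that differ between the copies in capitals. The RPL35 copies differ at 2 of these 90 bases and the RPL12 copies at 13.
RPL35A, chrIV:118158-118247, plus strand, exonic: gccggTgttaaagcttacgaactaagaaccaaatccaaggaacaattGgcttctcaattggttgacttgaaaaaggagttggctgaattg
RPL35B, chrIV:218008-218097, plus strand, exonic: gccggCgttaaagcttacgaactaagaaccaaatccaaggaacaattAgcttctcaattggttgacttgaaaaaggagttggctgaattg
RPL12A, chrV:53105-53194, minus strand, exonic: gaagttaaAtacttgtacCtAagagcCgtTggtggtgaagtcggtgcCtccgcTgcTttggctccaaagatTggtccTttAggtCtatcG
RPL12B, chrIV:1301640-1301729, plus strand, exonic: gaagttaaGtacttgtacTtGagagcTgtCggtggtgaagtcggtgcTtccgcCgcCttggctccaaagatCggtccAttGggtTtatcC

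Reads that aligned to several places, 18.3 to 19.6% of the reads sorted per library, are not in the gene counts. As a gauge of what this leaves, the start positions in the coding exons at which a 50-base stretch occurs once in the R64 genome were counted; the read length is not given in the sources used here. Such starts made up 19.0% of RPL1, 19.1% of RPL35, 27.3% of RPL4, 39.1% of RPL11, 43.0% of RPL7, 56.8% of RPL14 and 71.5% of RPL2. In the other 22 pairs they made up at least 80%. Within a pair both copies lose about the same positions, so the loss falls mainly on the level of a pair.

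Upstream sequences were searched for letters known from Rap1 sites. Overlapping patterns were used, on both strands of the 500 bases before the start codon. The first, CACCC followed by any 2 bases and then ACA, occurred in 14 of the 58 members (24.1%) against 133 of 6000 nuclear coding genes (2.22%). The other, CA, any base, CC, any base and then TACA, was added after the result of the first had been seen and occurred in 17 members (29.3%) against 146 of 6000 genes (2.43%). Either pattern was present in 22 members, 153 to 442 bases before the start codon, in both copies of 5 pairs and in 1 copy of 12 pairs. The share of all genes with either pattern is not given here, so the count of 22 has no background beside it. Of the 10 large-subunit genes that have no second copy, 1 held the first pattern and 2 the other. The RRPE letters AAAATTTT and the PAC letters GATGAG, known from genes of ribosome assembly, occurred in 13.8% and 20.7% of members against 12.4% and 28.2% of all genes. The RPL22 pair, very unequal in level, and the RPL13 pair, whose copies hold several matches each, are given here from the RefSeq R64 genome in the direction of transcription, with each match to the second pattern or its reverse complement in capitals.
RPL22A, chrXII:262954-262987, plus strand, 240 to 207 bases before the start codon: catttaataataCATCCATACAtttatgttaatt
RPL22B, chrVI:65157-65190, minus strand, 258 to 225 bases before the start codon: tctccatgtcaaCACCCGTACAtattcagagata
RPL13A, chrIV:308131-308246, plus strand, 293 to 178 bases before the start codon: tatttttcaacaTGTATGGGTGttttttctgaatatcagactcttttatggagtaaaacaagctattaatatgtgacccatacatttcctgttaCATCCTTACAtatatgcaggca
RPL13B, chrXIII:551518-551641, minus strand, 434 to 311 bases before the start codon: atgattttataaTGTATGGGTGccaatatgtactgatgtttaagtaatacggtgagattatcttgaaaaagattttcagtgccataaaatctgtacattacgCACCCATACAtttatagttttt
RPL22A matches the second pattern only and RPL22B matches both patterns. Whether these letters bear on the unequal levels of the RPL22 copies was not tested. A match is a description of letters and is not evidence of binding.

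The libraries held 12395725 to 19093010 counts on genes, and the 58 members took 6.80 to 8.68% of them. All 58 members had enough counts to be tested, and the lowest count of any member in a library was 705, for RPL15B. NUP60 ranged from 77.0 to 94.4 CPM over the libraries, where CPM is the usual count scaled for sequencing depth, with library sizes adjusted by the trimmed mean of M values (TMM). HIS3 had 1017 to 1793 counts in WT libraries, 1154 to 1320 in K467N libraries and at most 1 count in any K467R library. Of the 153 pairs of libraries, none agreed within sampling noise (the lowest chi-square per degree of freedom was 2.52).

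In WT the members were among the most abundant messages. Their level per length, in CPM per kilobase of coding sequence, had a median of 2634 against 41.3 over all 5472 tested genes with a length. Of the 58 members, 46 ranked 200 or higher. RPL15A (YLR029C), the copy of RPL15 that yeast cells need to live, was highest with 6262 ± 639 (SD, n = 6) and ranked 27. RPL31A (YDL075W) and RPL33A (YPL143W) followed with 6075 ± 695 and 5156 ± 643, so the first and second of this order differed by less than their spread. At the low end stood RPL15B (YMR121C) with 97.8 ± 8.47, RPL7B (YPL198W) with 321.8 ± 23.6 and RPL35B (YDL136W) with 428.8 ± 46.3. The WT libraries of these 3 did not overlap, and the last 2 of them belong to pairs with few unique positions. RPL15A and RPL15B stood as far apart in the mutants: RPL15A ran from 5129 to 6980 in K467N and from 6085 to 7835 in K467R, while RPL15B ran from 78.6 to 112.2 and from 97.1 to 130.1 CPM per kilobase.

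The copies together gave levels that depended on how much of the pair can be counted. The sum of A and B in WT ran from 1093 CPM per kilobase in RPL35 to 8440, with a median of 6002. Among the 22 pairs with at least 80% unique 50-base starts the sums ran from 4206 to 8440, with a coefficient of variation of 17.3%. The 10 large-subunit genes that have no second copy spanned 4166 to 7919 with a coefficient of variation of 17.6%, so these well-counted pairs and the unpaired genes covered almost the same range. The 7 pairs below 80% had a median of 2073. Dividing each level by the share of unique 100-base starts brought those 7 pairs to 3216 to 7775, with a median of 4476, and RPL35 from 1093 to 4810. With 50-base starts the median was 5721 and RPL35 stood at 5721, while the 7 pairs ran from 4656 to 10850. The top value was that of RPL1, which stood at 5326 with 100-base starts, so the corrected level depends on the assumed read length. The share of unique starts is the same or nearly the same in both copies of each pair, so this correction cannot test the ratio of the copies.

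**Figure D1:**
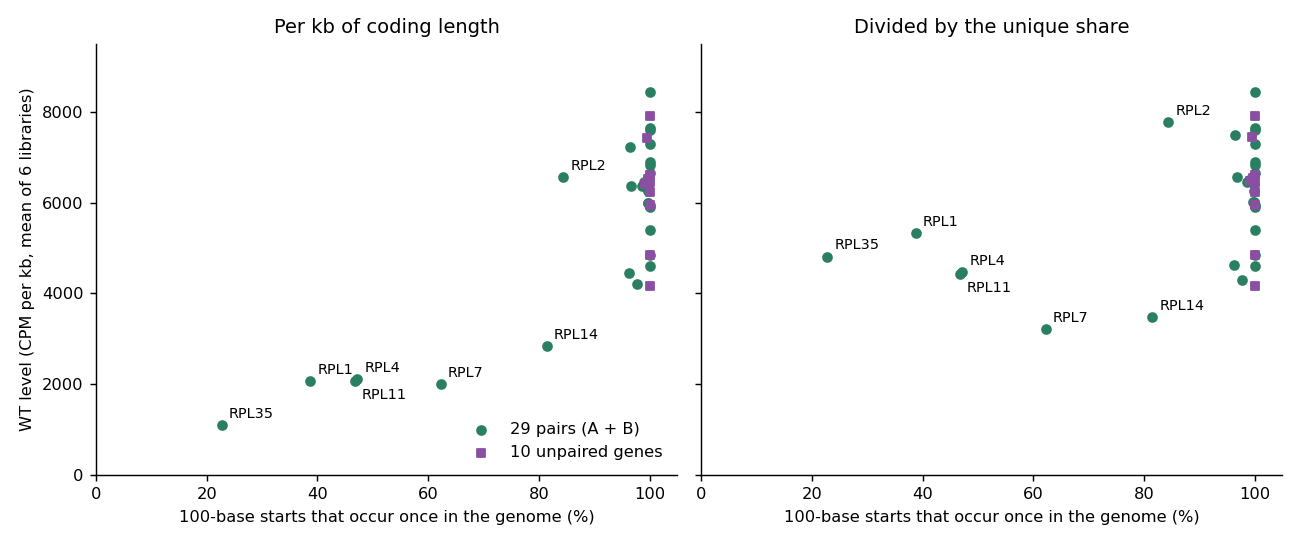
WT level of each protein as CPM per kilobase of coding length (left) and divided by the share of unique 100-base starts (right), against that share in percent; circles are the 29 pairs with both copies summed, squares the 10 unpaired genes, each a mean of 6 libraries. RPL35 rises from 1093 on the left to 4810 on the right.

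The copies of a pair contributed unequally. The share of the A copy in the pair's counts per length exceeded 50% in 17 pairs and lay below it in 12, and the higher copy exceeded the lower by more than 2 times in 12 pairs and by more than 5 times in 4. These 4 were RPL15, RPL22, RPL18 and RPL7, all led by the A copy. In RPL15 the A copy made up 98.4 to 98.6% in WT (mean 98.5 ± 0.081, n = 6), a ratio of 63.9. The A copy of RPL18 made up 87.4 ± 0.449% and that of RPL7, a pair with 2 introns in each copy, 83.9 ± 0.336%. RPL9 came next with 79.6 ± 1.39% from RPL9A, followed by RPL14 with 73.0% and RPL31 with 72.0%. The strongest lead of a B copy was smaller: RPL36A held 22.9% of its pair, RPL8A 25.2%, RPL26A 32.8% and RPL13A 34.6%.

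RPL22 is of interest because the Rpl22 protein is known in yeast to hold back splicing of the RPL22B message. RPL22A (YLR061W) had 1298, 1610 and 1763 CPM (lowest, median and highest library) in WT, 1251, 1557 and 1671 in K467N, and 1471, 1680 and 1976 in K467R. RPL22B (YFL034C-A) had 194.4, 223.0 and 242.2 CPM in WT, 182.4, 228.5 and 238.1 in K467N, and 197.3, 224.0 and 237.2 in K467R. Both copies overlapped between strains, and the share of RPL22A was 86.8 to 88.6% in WT, 87.05 to 87.6% in K467N and 86.6 to 91.0% in K467R. The top value came from the library K467R 1, in which the RPL22A count made up 90.92% (95% Wilson interval 90.59 to 91.24%, which covers counting error only). Gene counts do not separate spliced from unspliced RPL22B message.

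The most even pairs were RPL20, RPL21 and RPL37, taken among pairs with at least 20% unique 50-base starts. RPL20A held 48.7, 49.4 and 50.4% in WT (lowest, median and highest library), 48.4, 49.4 and 49.8% in K467N and 48.1, 49.3 and 52.9% in K467R. RPL20 was thus led by either copy depending on the library, as was RPL1, while in the other 27 pairs the same copy led in all 18 libraries. RPL21A held 54.8, 55.0 and 55.5% in WT, 54.4, 54.9 and 55.2% in K467N and 52.9, 54.7 and 55.1% in K467R. RPL37A held 43.9, 44.5 and 45.2%, 43.7, 44.6 and 44.9%, and 43.9, 44.6 and 45.0% in the same order. Each of these ranges overlapped between strains. Over all pairs and strains the SD of a share between libraries was 0.0734 to 1.71 percentage points, with a median of 0.521, and the largest change of a mean share between strains was 1.28 points.

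**Figure D2:**
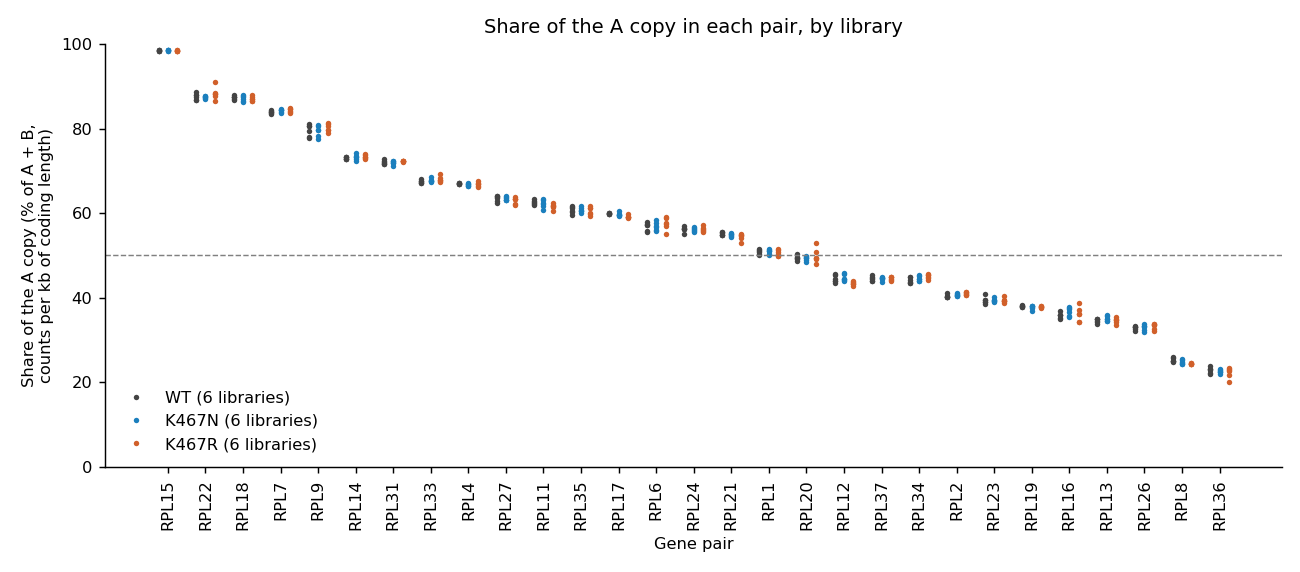
Share of the A copy in percent of A plus B (counts per kilobase of coding length) for the 29 pairs, ordered by the WT mean; each point is a library, in 6 libraries per strain. RPL15 stands at 98.5% and RPL36 at 22.9% in WT, and the 3 strains lie on top of each other at nearly every pair.

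Copy ratios varied less between libraries than levels did. Within strains the SD of the log2 level of a member had a median of 0.148, from 0.0515 for RPL9B to 0.197 for RPL36B. The SD of log2(A/B) within strains had a median of 0.0363 over the 29 pairs, from 0.018 in RPL2, whose protein lies near the site of peptide bond formation, to 0.137 in RPL22 and 0.109 in RPL9. Over the other 264 paralog pairs of the genome that could be compared the median was 0.101, but those pairs include genes of much lower count. Several other pairs of high count had small spreads. YBR118W/YPR080W had 0.0213, YER131W/YGL189C 0.0219, YDR450W/YML026C 0.0223, YDL229W/YNL209W 0.0245, YGR192C/YJR009C 0.0252 and YLR441C/YML063W 0.0271. Larger spreads were those of YDL083C/YMR143W with 0.0896 and YDL081C/YDL130W with 0.136. In the pairs named here the lower copy had a mean count of 20170 to 80190. Ribosomal protein genes outside the members were not left out of these other pairs. Small spreads of the copy ratio were thus not particular to the members.

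Nearly all members moved together from library to library. Relative to the WT mean of each gene, the median of the 58 members ran on the log2 scale from -0.184 to 0.128 over WT libraries, from -0.296 to 0.120 over K467N libraries and from -0.060 to 0.317 over K467R libraries. The median of all tested genes stayed between -0.0175 and 0.0095. The libraries at the ends were K467N 2 and K467R 1, which also had the highest and the lowest TMM factor, 1.065 and 0.910, and 18.3 and 19.6% of reads with several alignments. The part of these differences in the members' levels was not tested. In bulk RNA, fewer cells with a message and less message per cell cannot be told apart.

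**Figure D3:**
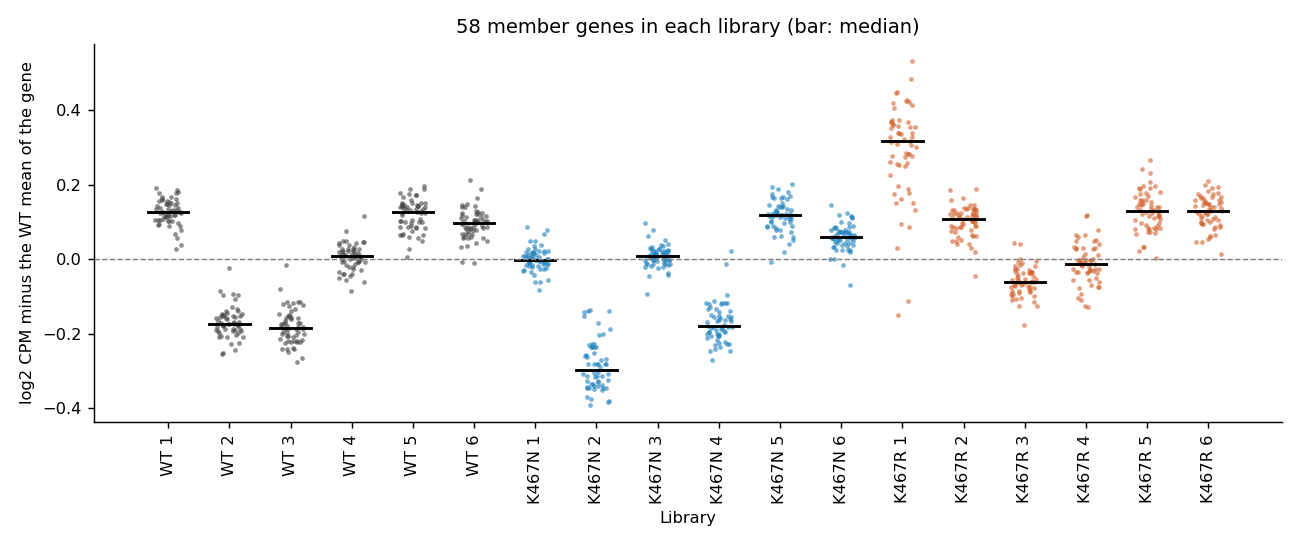
log2 CPM of the 58 members minus each gene's WT mean, in each of the 18 libraries; points are genes and bars the median over members. The bars run from -0.296 in K467N 2 to 0.317 in K467R 1, and the bars of the 3 strains overlap.

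As a description over the 18 libraries, which share their scaling, each member's log2 CPM was correlated with the mean of the other pairs. Pearson's r had a median of 0.981 over the 58 members and reached 0.994. The 5523 tested genes outside the ribosomal protein genes of both subunits had a median of -0.096 with the mean of the members. Of these 5523 genes, 262 were above 0.9. How closely the other ribosomal protein genes followed the members is not given here. Among members the lowest values were those of RPL9B (0.547), RPL22B (0.591) and RPL20B (0.690). RPL9B stayed between 484.4 and 501.3 CPM in WT, while RPL9A ran from 1710 to 2115. It ran from 445.7 to 512.0 CPM in K467N and from 477.4 to 520.5 in K467R, so RPL9B was nearly flat in libraries where RPL9A moved. In K467R 1, where the members' median stood 0.317 above WT, RPL22B was at 197.3 CPM and RPL20B at 1837 CPM, which is -0.15 and -0.11 relative to their WT means on the log2 scale. RPL36B stood highest in that library, 0.53 above its WT mean. Outside the ribosomal protein genes, the genes most like the mean of the members were PFY1, the gene of profilin (r = 0.989), GIS2, which encodes a zinc-finger protein that binds RNA (r = 0.989), and EFB1, which encodes a translation elongation factor (r = 0.981).

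K467N against WT asks whether the acetyl mimic changes these genes. EdgeR's quasi-likelihood test called 0 of 58 members at an adjusted p of 0.05, against 4 genes (0.0707%) of the 5660 tested. In the same test 0 members had an unadjusted p under 0.05. At that threshold were 65 of all genes (1.15%), 32 higher (0.565%) and 33 lower (0.583%). DESeq2 called 0 members and 5 genes. Log2 fold changes of members ran from -0.08 to 0.01, with a median of -0.05 against 0.0003 over all genes, and their standard errors had a median of 0.079. RPL35A, which had the smallest p, had 203.2, 251.2 and 271.3 CPM in WT (lowest, median and highest) and 193.7, 236.5 and 260.8 in K467N, a log2 fold change of -0.08 ± 0.079 (SE). RPL35B gave -0.08 ± 0.079 and RPL7B, whose 212.3 to 254.0 CPM in WT overlapped 201.3 to 246.1 in K467N, gave -0.06 ± 0.058. The adjusted p was 0.999 for each of these 3 genes in edgeR. Estimates of 57 of 58 members lay below 0, as did those of 2819 of 5660 genes, and the direction turned when 1 library was left out: without K467N 2 the median was 0.0039 and 34 members lay above 0. With all libraries it was -0.01 after a correction for coding length and -0.0068 with 2 surrogate variables. The first surrogate variable had r = -0.959 with the mean of the members. That fit therefore removes what the members share and cannot test a shared shift.

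K467R against WT asks the same of the deacetyl mimic. Here edgeR also called 0 of 58 members, against 4 genes (0.0707%), and 1 member, RPL34A, had an unadjusted p under 0.05 against 321 genes (5.67%), of which 139 were higher (2.46%) and 182 lower (3.22%). DESeq2 called 0 members and 6 genes. Estimates of all 58 members lay above 0, as did those of 2654 of 5660 genes, with log2 fold changes of 0.00 to 0.20 and a median of 0.10, against -0.01 over all genes. RPL34A had 742, 912 and 952.5 CPM in WT and 890, 976 and 1209 in K467R, a log2 fold change of 0.20 ± 0.090. RPL11B, whose protein contacts the small ribosomal RNA of the large subunit, had 351.2, 414.2 and 452.6 CPM in WT and 398.1, 457.1 and 553.8 in K467R, with 0.18 ± 0.087. RPL18B had 290.4, 319.9 and 331.7 CPM in WT and 320.7, 332.6 and 382.5 in K467R, with 0.11 ± 0.053. All 3 overlapped between the strains, and each had an adjusted p of 0.747 in edgeR. The members' median was 0.06 without K467R 1 and 0.04 after a per-library correction for coding length. It was 0.00 with 2 surrogate variables, a fit that removes what the members share and so cannot test a shared shift.

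K467N against K467R sets the opposite mimics against each other; the marker differs between them as well. EdgeR called 0 of 58 members, against 1 gene (0.0177%) of 5660, and DESeq2 called 0 members and 1 gene. Estimates of all 58 members lay below 0, as did those of 2690 genes, with log2 fold changes of -0.23 to -0.02 and a median of -0.14 against 0.01 over all genes. Of the 58 members, 10 (17.2%) had an unadjusted p under 0.05 and all of these estimates were lower in K467N. At that threshold were 635 of all genes (11.2%), 331 lower (5.85%) and 304 higher (5.37%). RPL15B had 48.3, 57.3 and 69.0 CPM in K467N and 59.7, 64.7 and 79.98 in K467R, a log2 fold change of -0.20 ± 0.081. RPL34A, with 689 to 989 CPM in K467N and 890 to 1209 in K467R, gave -0.23 ± 0.090. RPL26A, whose protein lies by the exit of the peptide tunnel, had 658.8, 809.9 and 851.4 CPM against 796, 877.1 and 1001, with -0.17 ± 0.075. The ranges of these 3 members overlapped, and each had an adjusted p of 0.408 in edgeR. The count of 10 rested on single libraries: it was 0 without K467N 2 or without K467R 1, 34 without K467N 5 and 32 without K467R 3. The share of all genes under 0.05 in those fits is not given here, so these counts only describe how unsteady the count of 10 was. The members' median ran from -0.18 to -0.10 over all omissions of 1 library. This median was -0.05 without both K467R 1 and K467N 2 and -0.05 after the correction for coding length. It was -0.0037 with 2 surrogate variables, the fit that removes what the members share.

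**Figure D4:**
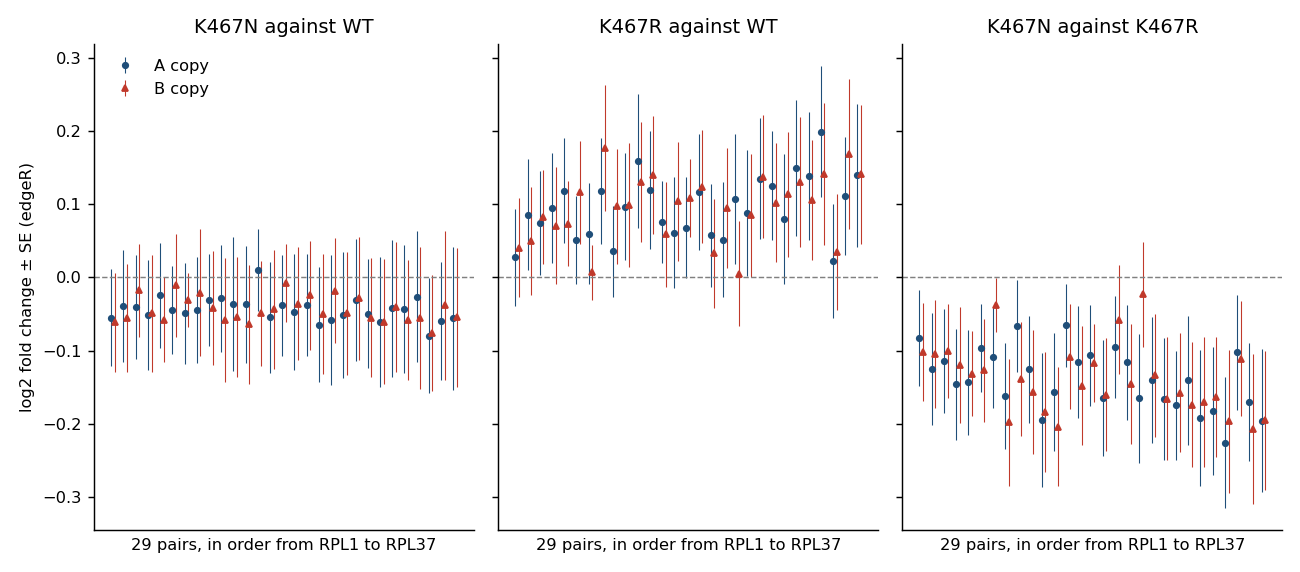
log2 fold change of each member with its standard error from edgeR (6 libraries per strain), for the 3 comparisons, in order from RPL1 to RPL37; circles are A copies and triangles B copies. The members' medians are -0.05, 0.10 and -0.14, and no member passed the test.

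The groups overlapped for every member: 0 of 58 members had non-overlapping libraries in any comparison, where 0.0883% of all genes were wholly higher and 0.0353% wholly lower for K467N against WT, 0.141% each way for K467R against WT, and 0.23% and 0.053% between the mutants. A and B copies had similar medians, -0.04 and -0.05 for K467N against WT, 0.10 and 0.10 for K467R against WT, and -0.14 and -0.15 between the mutants. So had members with and without an intron, with -0.05 and -0.04, 0.10 and 0.09, and -0.15 and -0.12. K467N against WT and K467R against WT share the WT libraries, and K467N against K467R shares each mutant with one of them.

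Copy ratios were tested over the 293 paralog pairs of the genome, with limma on log2(A/B). No ratio of a member pair passed the test: 0 of 29 were called in each comparison, as were 0 of 293 pairs (0%). For K467N against WT, 0 of 29 member pairs had an unadjusted p under 0.05 in limma, against 8 of 293 pairs (2.73%). For K467R against WT it was 7 of 29 against 34 of 293 (11.6%). For K467N against K467R it was 2 of 29 against 36 of 293 (12.3%). Only for K467R against WT was the share of member pairs above that of all pairs, and no pair passed after adjustment. The edgeR test of differential usage within pairs called 0 member pairs in each comparison, and 0, 1 and 3 of all pairs. Differences in log2(A/B) ran from -0.04 to 0.06, from -0.07 to 0.10 and from -0.14 to 0.07, with a median standard error of 0.0221. The 95% interval of a difference reached at most 0.14 to either side of its estimate. The libraries of 0, 1 and 0 of the 29 member pairs did not overlap in the 3 comparisons. Over all 293 pairs it was 1, 1 and 3 (0.341%, 0.341% and 1.02%).

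The pair closest to the threshold was RPL8, the gene pair of a protein that binds early to the ribosomal RNA precursor. RPL8A held 24.8, 24.9 and 25.9% of the pair in WT (lowest, median and highest), 24.3, 24.7 and 25.4% in K467N and 24.2, 24.3 and 24.6% in K467R. All 6 K467R libraries lay below all 6 WT libraries, the 1 member pair without overlap. The difference in log2(A/B) was -0.07 ± 0.018 for K467R against WT, with an adjusted p of 0.136 in limma; the exact two-sided permutation test gave an unadjusted p of 0.00216, the smallest that 6 against 6 libraries allow. For K467N against WT the RPL8 difference was -0.03 ± 0.018, with an adjusted p of 1 in limma.

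RPL17 encodes a protein that lines the peptide tunnel. RPL17A held 59.7, 59.8 and 60.1% in WT, 59.3, 59.5 and 60.6% in K467N and 58.8, 59.1 and 59.7% in K467R. The K467R range touched that of WT at its upper end, and the difference was -0.04 ± 0.014 against WT (limma, adjusted p = 0.142) and 0.03 ± 0.014 for K467N against K467R (limma, adjusted p = 0.338). RPL12A held 43.5, 44.3 and 45.5% in WT, 43.8, 44.4 and 45.8% in K467N and 42.9, 43.4 and 43.9% in K467R, with a difference of 0.07 ± 0.022 for K467N against K467R (limma, adjusted p = 0.139). RPL16A held 34.9, 35.8 and 36.8% in WT and 35.4, 37.0 and 37.7% in K467N, a difference of 0.06 ± 0.040 (limma, adjusted p = 1), with overlapping ranges. In K467R the RPL16A share was 34.2, 36.1 and 38.8%, a range that spans that of WT, and the difference from WT was 0.02 ± 0.040 (limma, adjusted p = 0.847). With 2 surrogate variables, limma called 3 member pairs for K467R against WT, RPL34 with 0.06 ± 0.016, RPL8 with -0.05 ± 0.014 and RPL16 with 0.06 ± 0.017, each at an adjusted p of 0.0438, among 8 of the 293 pairs (2.73%). For RPL16 this fit moved the estimate from 0.02 to 0.06; for RPL34 the fit without surrogate variables gave 0.05 ± 0.021 (limma, adjusted p = 0.22).

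**Figure D5:**
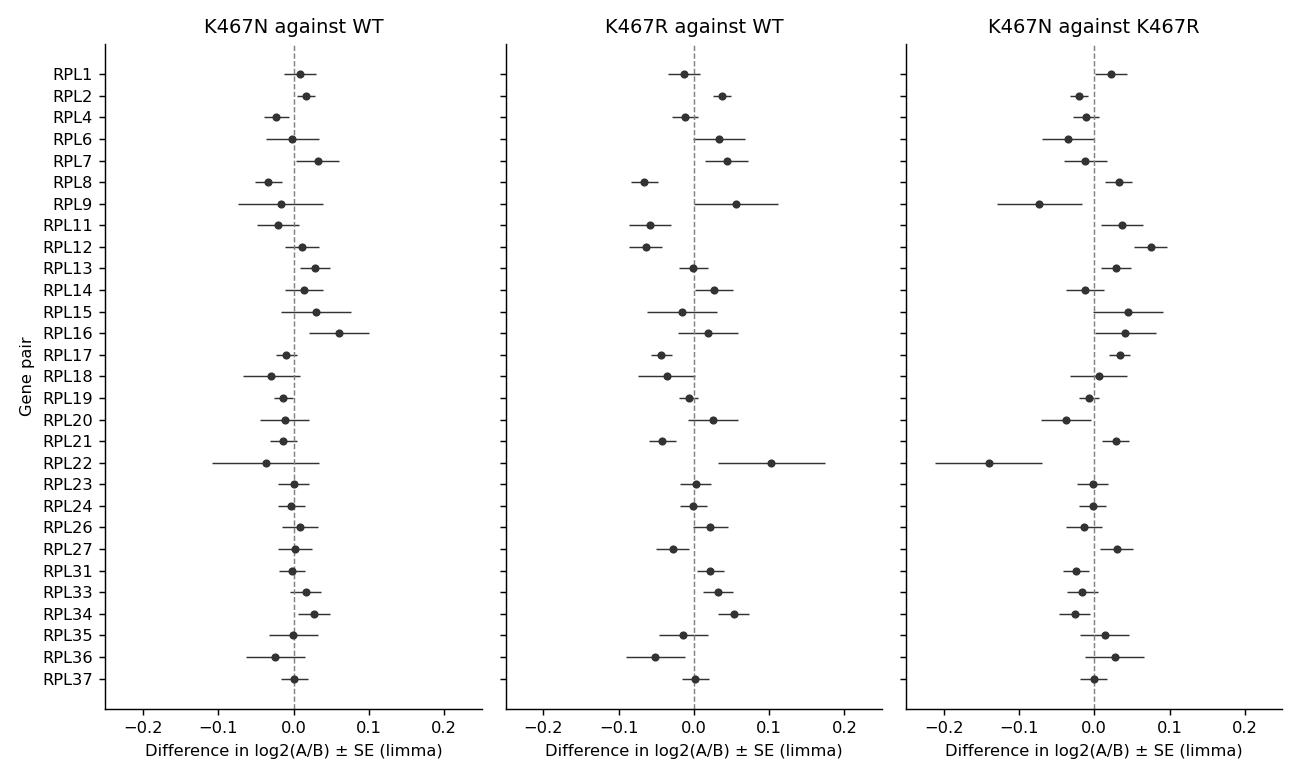
Difference in log2(A/B) between strains for each of the 29 pairs with its standard error from limma (6 libraries per strain), in the 3 comparisons. Every pair lies between -0.14 and 0.10, and none passed the adjusted threshold.

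Other genes of the large subunit and of its supply were listed with earlier results of these data known. Among the 10 unpaired genes, 0 were called in any comparison, with medians of -0.05, 0.09 and -0.14; RPL39 gave 0.23 ± 0.106 and RPL32 0.14 ± 0.084 for K467R against WT (edgeR, adjusted p = 0.747 each). The 8 genes of RPL40 to RPL43 had 0 calls and medians of -0.06, 0.14 and -0.21, with RPL41B at 0.32 ± 0.151 for K467R against WT. The 5 genes of the acidic stalk proteins had 0 calls and medians of 0.01, 0.18 and -0.16, with RPP2B at 0.20 ± 0.092. The 15 regulators of ribosomal protein genes had 0 calls and medians of 0.0045, -0.0046 and 0.0021. For K467R against WT, 7 of these 15 estimates lay above 0 and 8 below. IFH1, a coactivator of ribosomal protein genes, gave -0.07 ± 0.076 there and ABF1 gave 0.07 ± 0.046. Between the mutants 8 lay above 0 and 7 below, with UTP22 at 0.16 ± 0.110, FHL1 at 0.08 ± 0.057 and RAP1 at -0.05 ± 0.039. The 7 chaperones of ribosomal proteins had 0 calls and medians of -0.01, 0.06 and -0.07, with YAR1 at 0.11 ± 0.059 for K467R against WT and at -0.15 ± 0.059 between the mutants.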

How the data were processed

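RNA had been purified with poly(T) beads and made into stranded libraries, per the labels' protocols. The authors deposited raw counts per gene, 1 file per library; STAR 2.5.3a (alignment software) and HTSeq 0.6.1p1 (counting software) appear in the submitters' processing notes. The genome build, annotation, read length and strand option were not given in the sources used here. Identifiers were matched to RefSeq R64. Reads assigned to no gene were left out of library sizes; they were 4.70 to 5.64% outside genes and 0.305 to 0.349% ambiguous. Counts were scaled by TMM, filtered by filterByExpr and fitted in edgeR 4.0.16 (R 4.3.3) with all 18 libraries and strain as the only term; tests were two-sided, with Benjamini-Hochberg adjustment over 5660 genes at 0.05. Copy ratios, log2((A + 0.5)/(B + 0.5)), were fitted in limma 3.58.1 over 293 pairs of reciprocal best BLASTP hits (BLAST 2.17.0) with at least 50% identity over 80% of both proteins and a mean count of at least 50 in both copies. The exact permutation tests covered 87 comparisons of 29 pairs. DESeq2 1.42.0 and sva 3.50.0 served as alternatives, and Python 3.11.15 drew the figures. The gene tests and copy-ratio tests were tried on simulated data in which genes and ratios varied independently of each other. That simulation leaves out the movement that the members share, so it cannot vouch for their tests. The text names the 4 most unequal and 3 most even pairs, the 3 highest and 3 lowest members, the RPL22 pair, the 3 members and 2 pairs of smallest p in each comparison, up to 2 of smallest p in each other list, and the 3 genes most like the members. Other genes were singled out after their values were seen: RPL9, RPL20B, RPL36B, IFH1, RAP1 and pairs named to show ranges. Members, lists and tests were chosen with earlier results of these data known. Mean counts of the members were 895.8 or higher. How much of the spread of the copy ratios is counting error was not tested.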

Additional observations from a re-analysis of the deposited data

Results flagged for a closer look

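RPL18B stood at 382.5 CPM in K467R 1, apart from the other 5 K467R libraries at 320.7 to 342.7 CPM. The share of RPL37A was 43.75% in K467N 3 (95% Wilson interval 43.19 to 44.31%, counting error only), apart from 44.5 to 44.93% in the other K467N libraries. Each was marked because the gap to the nearest library was large for the range of its group. In each strain 20 groups were screened, and chance marks about 1 in 20 groups.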

How the results depend on the processing

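The count of 0 members called was the same in all 3 comparisons under every alternative run: DESeq2 size factors, upper-quartile scaling, TMM without ribosomal protein genes, no filter on low counts, a removed trend in coding length, 2 surrogate variables, DESeq2, the 12 libraries compared, and each library left out. The members' median log2 fold change ran from -0.0804 to 0.00386 for K467N against WT, from 0.0585 to 0.127 for K467R against WT and from -0.18 to -0.099 between the mutants when each library was left out; without both K467R 1 and K467N 2 it was 0.00106, 0.0585 and -0.0505. With the length trend removed it was -0.014, 0.0363 and -0.0473, and with 2 surrogate variables -0.00684, 0.00351 and -0.00372; the first surrogate variable had r = -0.959 with the mean of the members, so this fit removes what the members share. TMM without ribosomal protein genes gave -0.0509, 0.122 and -0.171. The SD of the members' median between libraries of a strain was 0.146. Counts of changed copy ratios were 0 in the limma fits, leaving out each library included, except for 3 with 2 surrogate variables for K467R against WT. By the exact permutation test without adjustment 1, 7 and 4 of the 29 member pairs were under 0.05. That test was run on member pairs only, so no share over all 293 pairs stands beside these counts. Over 17 alternatives the adjusted p of RPL8 for K467R against WT ran from 0.0438 to 0.287. The 17 pairs led by the A copy in WT were 17 with raw counts, with unique starts, whose share is nearly equal in both copies so that this count could hardly move, and with each WT library left out in turn. No paired analysis was possible because replicate numbers were given in accession order and pair no libraries.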
